A study of Mus musculus with 10 samples.

Results

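The kinesin, dynein and dynactin genes of 2 types of cortical projection neuron are described here. Members were chosen by symbol alone: every counted gene named *Kif* or *Kifc* plus a number, *Klc* plus a number, or starting with *Dync*, *Dynl* or *Dctn*. It took 70 of 24453 counted genes. The libraries came from intratelencephalic projection neurons (IT-PNs), which send axons to the other hemisphere, in layer 5 of primary motor cortex (M1). Male mice hemizygous for the transgene of line (Zfp312-EGFP)CO61GsatMmnc (*Fezf2-Gfp*, Swiss Webster background), in which *Fezf2* regulatory elements drive GFP, received the retrograde tracer cholera toxin subunit b (CTB) with Alexa 647 in left M1 at P23 to 25. Layer 5 of right M1 was taken at P28 to 32 and the cells were sorted by fluorescence. *Fezf2+ve* cells carried GFP and CTB, and *Fezf2-ve* cells carried CTB only, so the second type was defined by the absence of GFP. Each of 5 animals gave 1 library of each type from its own pooled sorted cells, and the comparison asks how these types differ within an animal.

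Kinesins and cytoplasmic dynein are motors that hydrolyse ATP to walk along microtubules. In axons, where microtubule plus ends point away from the cell body, most kinesins carry mitochondria, vesicle precursors and other cargo outward, and dynein, with its activator dynactin, carries endosomes, autophagosomes and signals from growth factor receptors back. Other kinesins build the mitotic spindle, drive transport inside cilia or shape microtubules, and a neuron with a long callosal axon depends on motors in both directions.

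The 10 libraries were shallow. *Fezf2+ve* libraries 1 to 5 held 118134, 107643, 118069, 151591 and 203379 reads on genes. *Fezf2-ve* libraries 1 to 5 held 167916, 89138, 168711, 211368 and 217738. The ranges of the types overlap, and the smallest library belongs to *Fezf2-ve* animal 2. A floor of 3 reads corresponds to between 13.8 and 33.7 CPM, the reads of a gene scaled to a library of 1000000 gene reads, so a gene below that level in a library may go unseen. Gene reads of most libraries exceed the study's totals of mapped reads. Some reads were therefore counted for more than 1 gene, counting is unlikely to have been limited to exons, and reads on these genes may lie in introns. The libraries were amplified by PCR and the sources name no molecular identifiers, so floors and counting intervals cover counting error only.

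Marker genes of cell types were read first, beginning with those of excitatory neurons. *Camk2a* had 32, 3, 6, 0 and 2 reads in *Fezf2+ve* libraries 1 to 5 and 8, 1, 529, 6 and 1 in *Fezf2-ve* libraries. *Snap25* had 35, 7, 5, 1 and 2 reads in *Fezf2+ve* and 1, 0, 4, 1 and 6 in *Fezf2-ve*. *Fezf2-ve* library 3 was high for *Camk2a* and *Fezf2+ve* library 1 for *Snap25*, and the types overlap in both. Over the 10 libraries *Slc17a7* and *Rbfox3* had 11 reads each and *Nrgn* 7. *Neurod6* and *Neurod2*, which mark cortical excitatory neurons, had 2 reads each. These markers thus gave few reads by which to describe the cell type, which the study assigned by tracer and GFP during sorting. Of these genes *Camk2a*, *Snap25*, *Slc17a7* and *Rbfox3* were tested, and 0 of the 4 had a false discovery rate (FDR) of 0.1 or less or an unadjusted p under 0.05 in edgeR with the animal as a block, 0 had either in DESeq2, and 0 had that FDR in edgeR without the block. DESeq2 sets aside genes of low mean level and gave an adjusted p to 1664 of 7409 tested genes, among these markers only to *Camk2a*, so its FDR counts here and below cover only such genes.

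Microglial markers differed far more. The 13 genes summed to 31, 19, 12, 11 and 26 reads in *Fezf2+ve* libraries 1 to 5 and to 1157, 486, 1222, 390 and 878 in *Fezf2-ve* libraries. On the normalized CPM scale used for levels below, whose library totals are reads on tested genes scaled by the trimmed mean of M values (TMM), these sums ran from 82.9 to 254 in *Fezf2+ve* and from 3019 to 5941 in *Fezf2-ve*, without overlap. *Ctss* was the most abundant with 817 reads, and none of the 13 was at 0. The median log2 fold change, written throughout as *Fezf2+ve* over *Fezf2-ve*, was -4.88. At an FDR of 0.1 or less, 0 of the 13 passed edgeR with the animal block, 11 had an unadjusted p under 0.05 there, all higher in *Fezf2-ve*, 10 passed in DESeq2 with the block, of 11 with an adjusted p, and 11 passed in edgeR without it. With the robust option of edgeR and the current quasi-likelihood method, 0 genes of the whole table passed without the block, these included. This difference lies between the same libraries as every comparison of motor genes below, and its part in them was not tested. In pooled cells, fewer cells of a type and less RNA per cell cannot be told apart.

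Of the 70 motor genes, 60 (85.7%) had at least 1 read in the 10 libraries, against 59.3% of all genes in the table. The 10 without a read were *Dync2li1*, *Dynlrb2*, *Kif12*, *Kif16bos*, *Kif18a*, *Kif22*, *Kif2b*, *Kif4-ps*, *Kif7* and *Klc2*; of these, *Kif4-ps* is annotated as a pseudogene and *Kif16bos* as an antisense RNA. For the comparison, a gene had to reach 10 CPM in at least 2 libraries, which 41 members (58.6%) and 7409 genes (30.3%) did. The other 19 members with reads had at most 10 reads each, a total that *Kif14* and *Kifc2* reached. *Fezf2+ve* libraries 1 to 5 detected 21, 42, 41, 17 and 33 members, and *Fezf2-ve* libraries 29, 30, 41, 28 and 28. The lowest and the highest number both fell within *Fezf2+ve*, and the ranges overlap. *Dync1h1*, *Kif13b*, *Kif1a* and *Kif1b* were the 4 members with a read in every library.

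Reads on motor genes were concentrated in a few genes and libraries. Of 1553687 gene reads, 11107 fell on members, and *Dync1h1*, *Kif13b* and *Kif1b* held 9418 of these (84.8%). Members took 0.237%, 0.412%, 0.164%, 2.27% and 0.0639% of the gene reads of *Fezf2+ve* libraries 1 to 5. In *Fezf2-ve* libraries 1 to 5 they took 3.60%, 0.0965%, 0.187%, 0.0341% and 0.0491%. *Fezf2+ve* library 4 and *Fezf2-ve* library 1 stood apart. In *Fezf2+ve* library 4, *Kif13b* alone made up 3406 of 3439 motor gene reads, and in *Fezf2-ve* library 1, *Dync1h1* made up 4332 of 6039. Without *Dync1h1*, *Kif13b* and *Kif1b*, the shares were 0.211%, 0.387%, 0.151%, 0.0178% and 0.0482% in *Fezf2+ve* and 0.159%, 0.0662%, 0.156%, 0.0227% and 0.0377% in *Fezf2-ve*. On that measure library 4 was the lowest of each type, and the types overlap.

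The member with the most reads changed from library to library. It was *Kif5c*, *Kif5a*, *Kif16b*, *Kif13b* and *Kif1b* in *Fezf2+ve* libraries 1 to 5, and *Dync1h1*, *Kif13b*, *Kif1a*, *Dync1h1* and *Kif16b* in *Fezf2-ve* libraries 1 to 5. Only libraries of different animals shared a top gene. The median tested member had 44.4% of its reads in its fullest library, against 50% for all tested genes, and 17 of 41 members (41.5%) had at least 50% there, against 51.2% of all tested genes. The comparison turns with the reads a gene has: of genes with at least 40 reads, a limit chosen after the values were seen and one that a full library alone can pass, 12 of 13 members (92.3%) and 63.6% of all such genes had at least 50% there. Neither is read as a difference of the members.

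**Figure D1:**
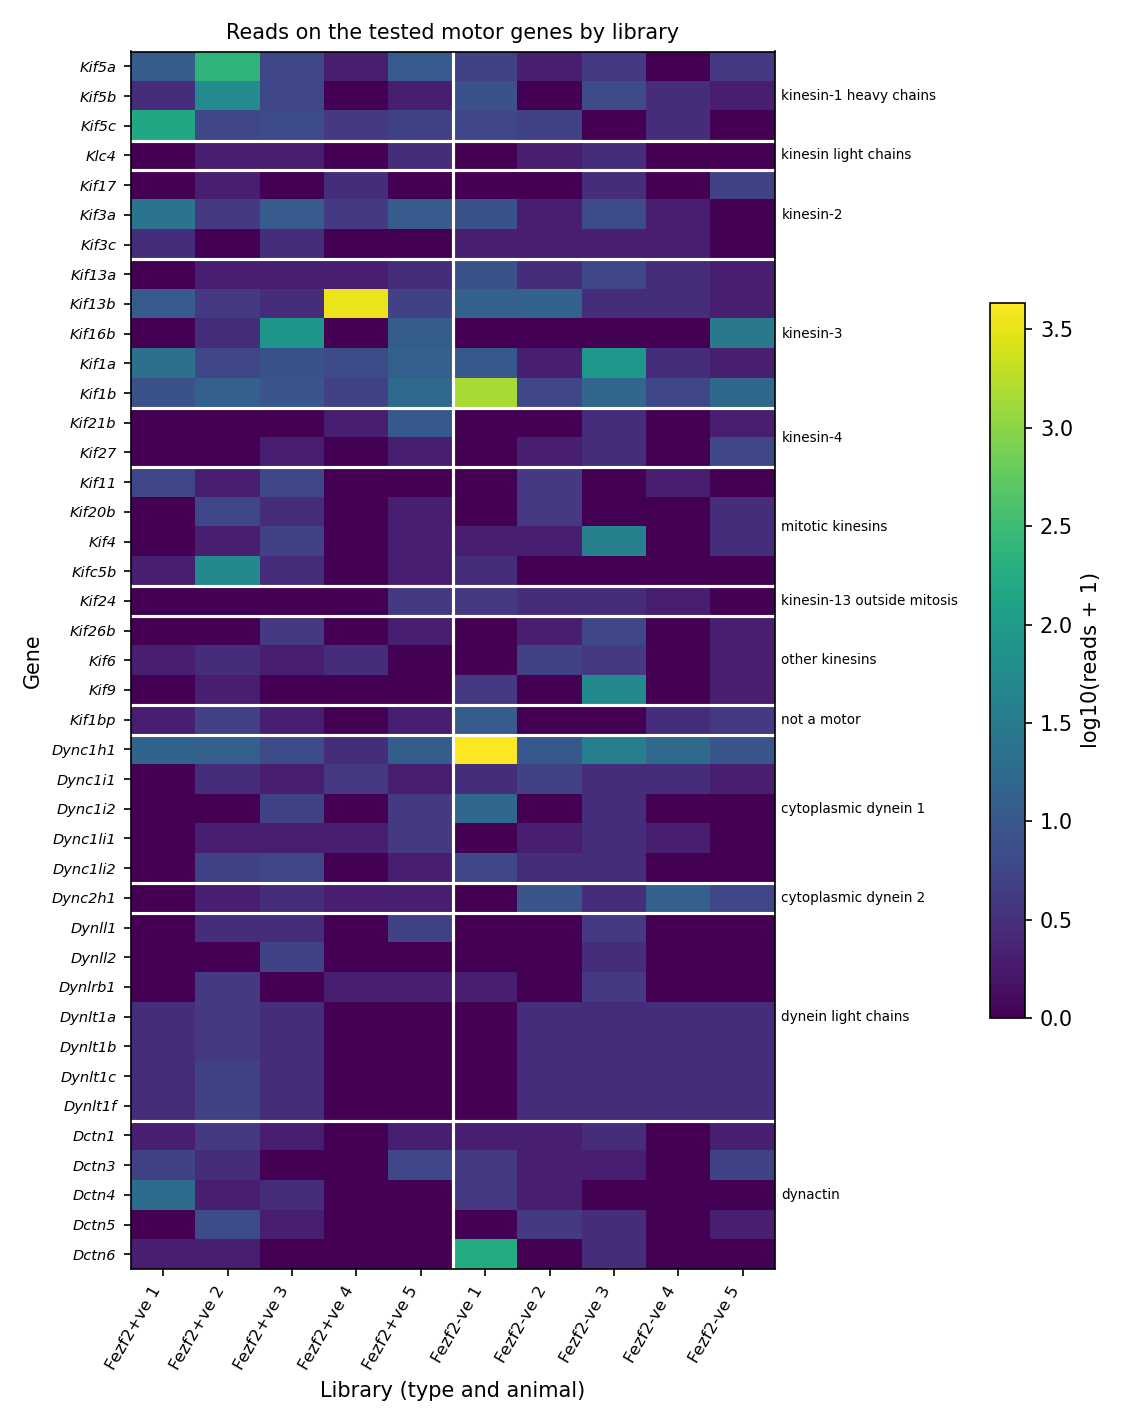
Reads on each of the 41 tested motor genes (vertical axis, by role) in each of the 10 libraries (horizontal axis), as log10(reads + 1) in colour, with white lines between roles and between cell types. The brightest cells are *Dync1h1* in *Fezf2-ve* library 1 (4332 reads), *Kif13b* in *Fezf2+ve* library 4 (3406 reads) and *Kif1b* in *Fezf2-ve* library 1 (1428 reads).

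**Figure D2:**
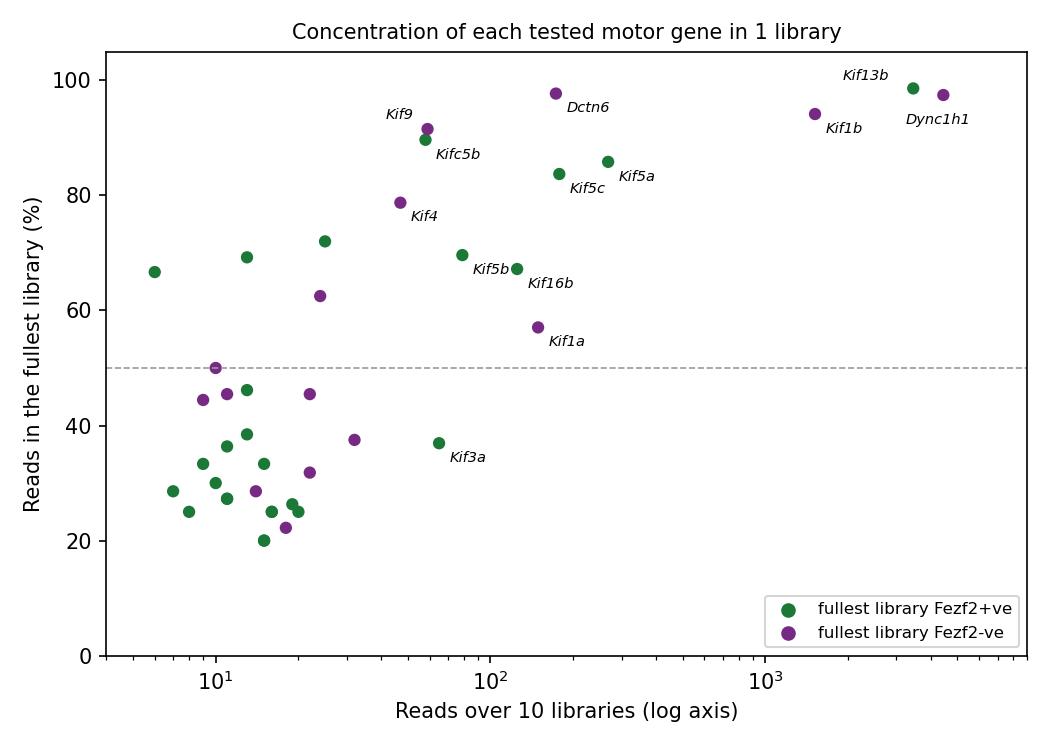
Percent of a gene's reads that lay in its fullest library (vertical axis) against its reads over the 10 libraries (horizontal log axis), 1 point per tested motor gene, coloured by the type of that library (the first library where several tie); the dashed line marks 50%. Names are given for genes with at least 40 reads, a total that the fullest library alone can bring about, so the axes are not independent; *Kif13b* lies at 98.6% and *Kif3a* at 36.9%.

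In the paired comparison, no motor gene passed. By edgeR's quasi-likelihood test, blocked by animal and with Benjamini-Hochberg adjusted p over 7409 genes, 0 of 41 members and 0% of all tested genes had an FDR of 0.1 or less, and the smallest adjusted p of a member was 0.998. At an unadjusted p under 0.05, edgeR counted 1 member higher in *Fezf2+ve*, *Kif5a* (2.44%, against 1.62% of all tested genes), and 0 members higher in *Fezf2-ve* (against 2.27%). DESeq2 with the same block counted 0 members at an FDR of 0.1 or less (against 1.32%), though only 8 of the 41 had an adjusted p there, and 2, *Kif5a* and *Kif5c*, at an unadjusted p under 0.05 (4.88%, against 4.08%). These shares lie near those of all genes or rest on 1 or 2 genes. Without the block, edgeR counted 3 members at that FDR, *Dync1h1*, *Kif13b* and *Kif5a* (7.32%, against 3.77%), and 8 at an unadjusted p under 0.05, the same 3 with *Dctn6*, *Kif1b*, *Kif5c*, *Kif9* and *Kifc5b* (19.5%, against 18.2%). Each of these 8 had more than 80% of its reads in 1 library.

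Read animal by animal, *Kif3a* and *Kif5a* had a higher CPM in *Fezf2+ve* in 5 of 5 animals, 4.88% of tested members against 1.69% of all tested genes. In 5 of 5 animals, 0 members were higher in *Fezf2-ve*, against 2.42%. For 0 members did the 5 libraries of each type separate without overlap, where 0.513% of all tested genes separated with *Fezf2+ve* higher and 0.945% with *Fezf2-ve* higher. Fold changes of the members ran from -3.25 to 3.26 on the log2 scale, 22 positive and 19 negative. Of the 19, 4 are *Dynlt1* copies with nearly the same reads; with the copies taken as 1 gene, 22 of 38 were positive, 16 were negative and the median was 0.32. Over all 41 members the median was 0.26, against -0.16 for all tested genes, with a median standard error of 1.57 against 1.78. The sign of the members' median was not stable: it was -0.048 with no filter, -0.0035 with a filter of 10 CPM in at least 5 libraries, -0.019 with limma and -0.13 without animal 3. A fold change exceeded its standard error in 12 members (29.3%, against 29.7% of all tested genes) and exceeded it by a factor of 2 in *Kif5a* and *Kif5c*. At this depth and spread, log2 differences as large as 3.26 did not pass the test.

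**Figure D3:**
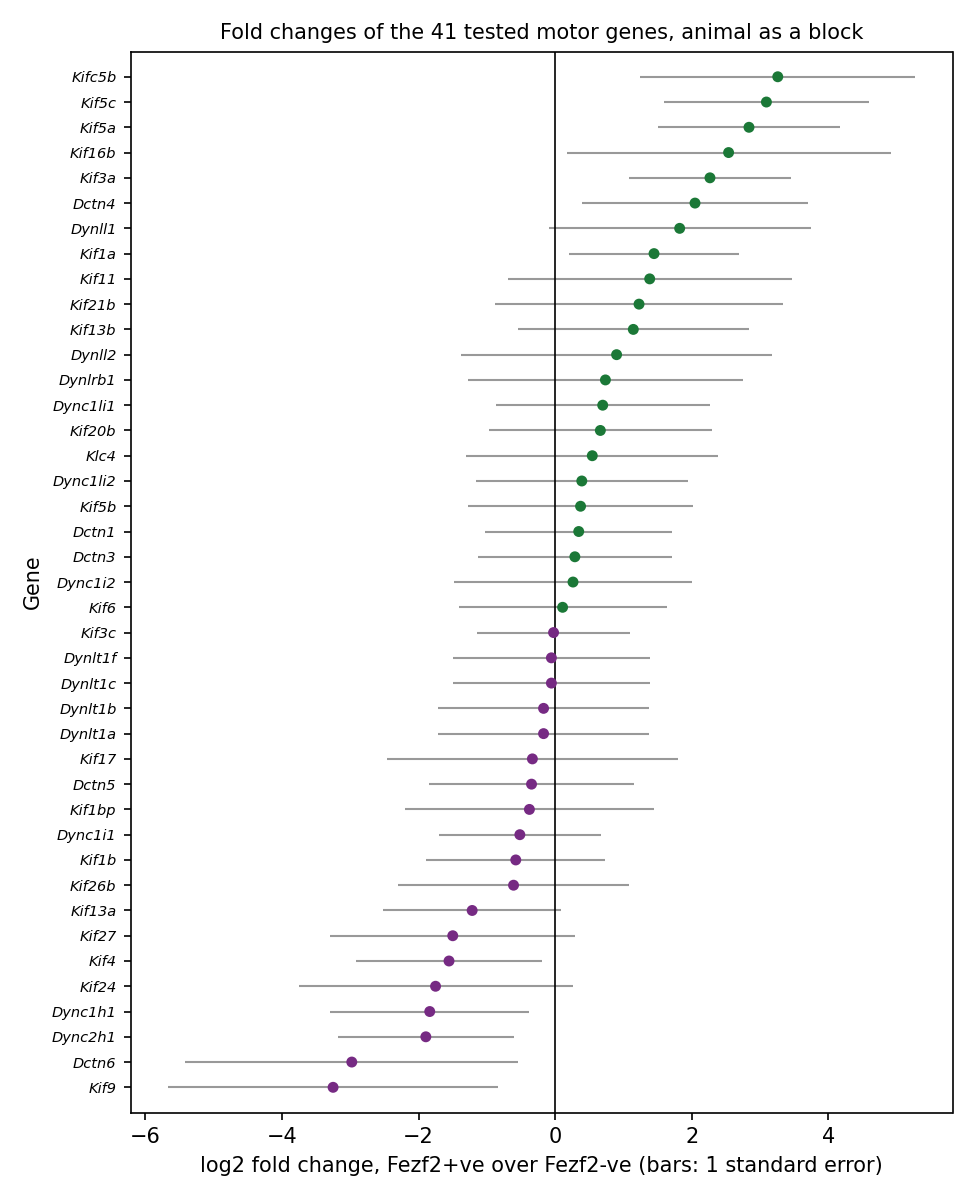
Log2 fold change (*Fezf2+ve* over *Fezf2-ve*, horizontal axis) of each of the 41 tested motor genes (vertical axis) from edgeR with the animal as a block; points are green where positive (22 genes) and purple where negative (19 genes), and bars extend 1 standard error to each side. The values run from -3.25 (*Kif9*) to 3.26 (*Kifc5b*), and bars of 29 genes reach 0.

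Kinesin-1 heavy chains, the motors of fast outward transport, had 487 reads in *Fezf2+ve* and 38 in *Fezf2-ve*, and all 3 had positive fold changes in the fit with the block. *Kif5a* (ENSMUSG00000074657; chromosome 10, 127225696 to 127263348, minus strand, in GRCm38/mm10 as all positions here), the neuronal form tied to neurofilament transport, had 11, 230, 5, 1 and 10 reads in *Fezf2+ve* libraries 1 to 5 and 4, 1, 3, 0 and 3 in *Fezf2-ve* libraries 1 to 5. Each *Fezf2+ve* library lay above the *Fezf2-ve* library of its animal, though the types overlap, and *Fezf2+ve* library 2 held 85.8% of the reads. The level on the scale log2(CPM + 1) was 6.37 ± 2.57 (SD, 5 libraries) in *Fezf2+ve* and 3.16 ± 1.81 in *Fezf2-ve*. The log2 fold change was 2.84 with a standard error of 1.33, an unadjusted edgeR p of 0.0449, and an adjusted p of 0.998 after Benjamini-Hochberg. That unadjusted p passed under 0.05 in 4 of 16 configurations of the blocked edgeR fit, and the configuration used here is among those 4. Without animal 2 the log2 fold change was 1.87 with a standard error of 1.15 and an unadjusted edgeR p of 0.126. Leaving out each animal in turn gave 1.87 to 3.44, positive each time.

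*Kif5c* (ENSMUSG00000026764; chromosome 2, 49619298 to 49774778, plus strand), the other neuronal heavy chain, had 149, 5, 6, 3 and 4 reads in *Fezf2+ve* libraries and 5, 4, 0, 2 and 0 in *Fezf2-ve* libraries. *Fezf2+ve* library 1 was the high one with 83.7% of the reads, and the remaining *Fezf2+ve* libraries overlapped with *Fezf2-ve*. Levels were 6.12 ± 2.33 (SD, 5 libraries) and 2.78 ± 2.57 on the log2(CPM + 1) scale, higher in *Fezf2+ve* in 4 of 5 animals. The log2 fold change of 3.09 had a standard error of 1.498 and an unadjusted edgeR p of 0.0517, and without animal 1 it was 2.13 with a standard error of 1.61. Leaving out each animal in turn gave 2.13 to 4.11, the highest without animal 2, with an unadjusted edgeR p of 0.0327. DESeq2 with the block gave *Kif5c* a Benjamini-Hochberg adjusted p of 0.180 and *Kif5a* 0.241. *Kif5b* (ENSMUSG00000006740), the heavy chain found in most cell types, had 2, 55, 5, 0 and 1 reads in *Fezf2+ve* and 7, 0, 6, 2 and 1 in *Fezf2-ve*. Its reads lay mostly in *Fezf2+ve* library 2, the library that was also high for *Kif5a*, and elsewhere the types overlapped. The log2 fold change was 0.37 with a standard error of 1.64, and -0.76 with a standard error of 1.26 without animal 2. Light chains, which link kinesin-1 to cargo, were sparse: *Klc1* had 6 reads, *Klc3* 2 and *Klc4* 7, and *Klc2* had none.

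Kinesin-2 motors carry cargo within cilia and axons. *Kif3a* (ENSMUSG00000018395; chromosome 11, 53567379 to 53601967, plus strand), a subunit of the heterotrimeric form, had 24, 3, 10, 3 and 10 reads in *Fezf2+ve* libraries 1 to 5 and 7, 1, 6, 1 and 0 in *Fezf2-ve* libraries. Its fullest library held 36.9% of the reads, and *Fezf2+ve* was the higher library in 5 of 5 animals, while the types overlap. Its level was 5.85 ± 1.21 (SD, 5 libraries) against 3.30 ± 2.07 in *Fezf2-ve*, in log2(CPM + 1). The log2 fold change of 2.27 had a standard error of 1.19 and an unadjusted edgeR p of 0.0707, with an adjusted p of 0.998 after Benjamini-Hochberg. With each animal left out in turn it ran from 1.74 to 2.61, and the unadjusted edgeR p from 0.0812 to 0.150. The motors that pair with it, *Kif3b* and *Kif3c*, had 2 and 8 reads, and *Kif17*, the homodimeric form that carries receptors into dendrites, had 9. In the same 5 of 5 animals the microglial marker sum was lower in *Fezf2+ve*. The CPM of *Mbp*, a myelin gene of oligodendrocytes, was higher in *Fezf2+ve* in 5 of 5 animals, at 500, 1890, 228, 94.1 and 325 against 365, 121, 82.6, 54.2 and 16.7 in *Fezf2-ve*, with a log2 fold change of 2.11 and a standard error of 1.17. The part of either in the values of *Kif5a* and *Kif3a* was not tested.

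Kinesin-3 motors carry synaptic vesicle precursors and endosomes, and held 5272 reads, 3627 in *Fezf2+ve* and 1645 in *Fezf2-ve*. *Kif1a* (ENSMUSG00000014602; chromosome 1, 93015464 to 93101951, minus strand), a motor of synaptic vesicle precursors, had 21, 5, 7, 6 and 12 reads in *Fezf2+ve* and 9, 1, 85, 2 and 1 in *Fezf2-ve*. *Fezf2-ve* library 3 was the high one, and in the other 4 animals *Fezf2+ve* had the higher level. Its log2 fold change was 1.45 with a standard error of 1.24, was 2.31 with a standard error of 1.12 without animal 3, and was -0.30 without the block. That library was also the one with 529 *Camk2a* reads, but it had only 4 of *Snap25*, 2 of *Slc17a7* and 1 each of *Rbfox3* and *Nrgn*. Its microglial marker sum was 1222 reads. The part of these cells in the *Kif1a* value was not tested.

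*Kif1b* (ENSMUSG00000063077; chromosome 4, 149176319 to 149307693, minus strand), which carries mitochondria and synaptic vesicle precursors, had 7, 12, 8, 4 and 17 reads in *Fezf2+ve* and 1428, 5, 15, 5 and 16 in *Fezf2-ve*. Apart from *Fezf2-ve* library 1, the libraries held 4 to 17 reads in both types and overlapped throughout. With all animals the log2 fold change was -0.58 with a standard error of 1.31, and 0.18 with a standard error of 0.947 without animal 1. *Kif13b* (ENSMUSG00000060012; chromosome 14, 64647265 to 64809617, plus strand), which carries membrane cargo and binds the scaffold Dlg, had 10, 3, 2, 3406 and 4 reads in *Fezf2+ve* and 12, 13, 2, 2 and 1 in *Fezf2-ve*. Its reads lay to 98.6% in *Fezf2+ve* library 4, and the other 9 libraries, with 1 to 13 reads, overlapped. With the block the log2 fold change was 1.14 with a standard error of 1.69, and without animal 4 it was 0.041 with a standard error of 0.813. Without the block it was 7.61, with a Benjamini-Hochberg adjusted edgeR p of 0.0931.

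*Kif16b* (ENSMUSG00000038844; chromosome 2, 142617474 to 142901531, minus strand), a motor of early endosomes, had 0, 2, 84, 0 and 11 reads in *Fezf2+ve* and 0, 0, 0, 0 and 28 in *Fezf2-ve*. It was seen in 4 libraries, of animals 2, 3 and 5, and was absent at this depth from the rest. Its fitted log2 fold change of 2.54 had a standard error of 2.37, was 0.14 without animal 3, and was 6.63 with an unadjusted edgeR p of 0.0285 without animal 5. *Kif13a*, another endosomal motor, had 5 reads in *Fezf2+ve* and 17 in *Fezf2-ve*, spread over 9 libraries with at most 7 in any, and *Kif1c* had 4 reads.

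Kinesins known from dividing cells were read beside a short list of division markers. Of 8 dividing-cell markers, 5 had reads, at most 5 for any gene (*Cdk1*), and *Ccnb1*, *Cenpe* and *Aurkb* were at 0. Their sum was 0, 1, 0, 0 and 1 in *Fezf2+ve* libraries and 5, 1, 0, 0 and 1 in *Fezf2-ve* libraries. The 1 tested gene of that list had no DESeq2 adjusted p and did not reach an FDR of 0.1 in edgeR with or without the block, or an unadjusted p under 0.05 in edgeR with the block. Of 14 members grouped as mitotic kinesins, among them *Kif4-ps*, a processed pseudogene without a read, 11 had reads and 4 were tested (*Kif4*, *Kif11*, *Kif20b* and *Kifc5b*), with 92 reads in *Fezf2+ve* and 75 in *Fezf2-ve*.

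*Kif4* (ENSMUSG00000034311; chromosome X, 100625737 to 100727214, plus strand), a motor of chromosome arms and of the spindle midzone, had 0, 1, 4, 0 and 1 reads in *Fezf2+ve* and 1, 1, 37, 0 and 2 in *Fezf2-ve*. *Fezf2-ve* library 3 was high and the others overlapped; the level was higher in *Fezf2-ve* in 4 of 5 animals and both libraries of animal 4 were at 0. The gene overlaps *Pdzd11*, so reads of the pair may be shared. For *Kif4* the log2 fold change was -1.55 with a standard error of 1.37, and -0.90 without animal 3. *Kifc5b* (ENSMUSG00000024301; chromosome 17, 26917091 to 26932583, plus strand), a minus-end-directed relative of *Kifc1*, had 1, 52, 2, 0 and 1 reads in *Fezf2+ve* and 2, 0, 0, 0 and 0 in *Fezf2-ve*. *Fezf2+ve* library 2 held 89.7% of them, and the types overlap. With 2 reads in *Fezf2-ve*, the ratio of pooled reads, each type divided by its summed normalized library totals, was 34.7 with a counting interval (95%, exact binomial) of 9.18 to 294, and the fitted log2 fold change of 3.26 (standard error 2.01) is no bound. Without animal 2 the fit gave 1.57 with a standard error of 2.21, and without animal 1 it gave 5.49 with an unadjusted edgeR p of 0.0333.

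Among the other kinesins, *Kif9* (ENSMUSG00000032489; chromosome 9, 110476958 to 110525179, plus strand), a motor of motile cilia and flagella, had 0, 1, 0, 0 and 0 reads in *Fezf2+ve* and 3, 0, 54, 0 and 1 in *Fezf2-ve*. *Fezf2-ve* library 3 held 91.5% of the reads, and both types had libraries at 0. The ratio of pooled reads over pooled library totals, *Fezf2-ve* over *Fezf2+ve*, was 46.8 with a 95% counting interval of 8.07 to 1878. The fitted log2 fold change was -3.25 with a standard error of 2.41, -1.22 without animal 3, and -5.96 with an unadjusted edgeR p of 0.0308 without animal 2. *Kif6* had 14 reads and *Kif26b* 11. Of the kinesin-4 genes, whose products regulate microtubule growth, *Kif21b* had 13 reads, 9 in *Fezf2+ve* library 5, *Kif27* had 10 and *Kif21a* 1. *Kif24*, a depolymerase linked to cilium assembly, had 11 reads and *Kif2a*, a depolymerase that limits axon branches, had 2. The minus-end-directed *Kifc2* and *Kifc3* had 10 and 3. *Kif1bp*, which met the rule by symbol but encodes a kinesin-binding protein and not a motor, had 22 reads in 7 libraries.

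Cytoplasmic dynein 1 drives inward transport. All 5 genes of its heavy, intermediate and light intermediate chains were tested, 3 with positive and 2 with negative fold changes. *Dync1h1* (ENSMUSG00000018707; chromosome 12, 110601452 to 110666945, plus strand), the heavy chain that holds the motor domain, had 14, 12, 6, 2 and 11 reads in *Fezf2+ve* libraries 1 to 5 and 4332, 9, 35, 17 and 8 in *Fezf2-ve* libraries. *Fezf2-ve* library 1 held 97.4% of the reads, and the other 9 libraries, with 2 to 35 reads, overlapped. Levels were 5.86 ± 0.87 (SD, 5 libraries) in *Fezf2+ve* and 8.14 ± 3.59 in *Fezf2-ve*, in log2(CPM + 1), higher in *Fezf2-ve* in 3 of 5 animals. With the block the log2 fold change was -1.84 with a standard error of 1.46, and -0.99 with a standard error of 1.15 without animal 1. Without the block it was -6.08, with a Benjamini-Hochberg adjusted edgeR p of 0.0931. The same library held the 1428 *Kif1b* reads and 169 of the 173 *Dctn6* reads.

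The other dynein 1 chains were low in both types. *Dync1i1*, the intermediate chain of neurons, had 18 reads in 9 libraries, at most 4 in any, and *Dync1i2*, the widespread form, had 24, 15 of them in *Fezf2-ve* library 1. The light intermediate chains *Dync1li1* and *Dync1li2*, which contact cargo adaptors, had 10 and 19. Dynein 2 works inside cilia. Its heavy chain *Dync2h1* (ENSMUSG00000047193; chromosome 9, 6928503 to 7184446, minus strand) had 0, 1, 2, 1 and 1 reads in *Fezf2+ve* and 0, 8, 2, 12 and 5 in *Fezf2-ve*. *Fezf2-ve* libraries 2, 4 and 5 were the high ones and animal 1 had none in either, so the types overlap. In edgeR the log2 fold change was -1.89 with a standard error of 1.29 and an unadjusted p of 0.157, and it ran from -2.61 to -1.48 with each animal left out.

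**Figure D4:**
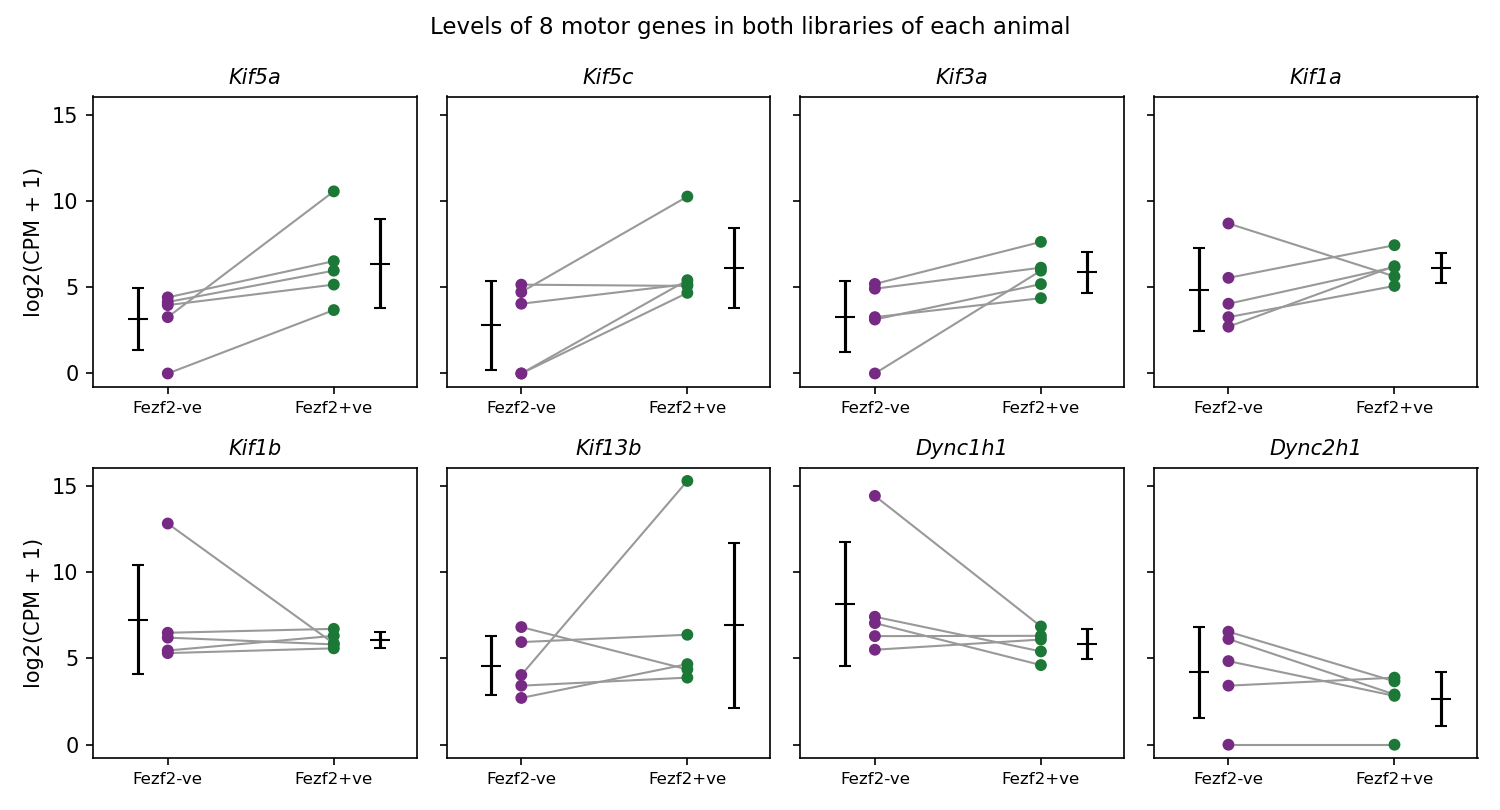
Levels of 8 motor genes as log2(CPM + 1) (vertical axis) in the *Fezf2-ve* (purple) and *Fezf2+ve* (green) library of each of 5 animals, joined by lines; horizontal ticks and bars beside the points give the mean and SD of 5 libraries. Lines of *Kif5a* and *Kif3a* slope toward *Fezf2+ve* in 5 of 5 animals, and *Kif1b*, *Kif13b* and *Dync1h1* each have 1 library far above the other 9.

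Dynein light chains are small subunits that help assemble the motor. Of 9 genes, 8 had reads and 7 were tested. Outside the *Dynlt1* genes they had 17 reads in *Fezf2+ve* and 10 in *Fezf2-ve*. The 4 *Dynlt1* genes are near-identical copies on chromosome 17: *Dynlt1a* (6306340 to 6317500, minus strand), *Dynlt1b* (6430112 to 6436296, plus strand), *Dynlt1c* (6601671 to 6609774, plus strand) and *Dynlt1f* (6646602 to 6655900, minus strand). Each has 339 coding bases. Those of *Dynlt1a*, *Dynlt1c* and *Dynlt1f* are identical, and *Dynlt1b* differs from them by 1 base, C21A relative to *Dynlt1a*, with positions counted from 1 at the A of the start codon (99.7% identity). The first 120 coding bases of *Dynlt1a* and *Dynlt1b* are printed because they show how little there is to tell the copies apart; the capital marks the base that differs.
Dynlt1a: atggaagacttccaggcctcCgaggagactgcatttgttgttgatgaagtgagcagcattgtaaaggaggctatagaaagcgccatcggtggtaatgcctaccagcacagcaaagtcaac
Dynlt1b: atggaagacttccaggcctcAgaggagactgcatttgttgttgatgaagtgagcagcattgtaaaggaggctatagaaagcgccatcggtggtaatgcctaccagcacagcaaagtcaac
*Dynlt1a* and *Dynlt1b* each had 2, 3, 2, 0 and 0 reads in *Fezf2+ve* libraries 1 to 5 and 0, 2, 2, 2 and 2 in *Fezf2-ve* libraries. *Dynlt1c* and *Dynlt1f* had the same reads apart from 4 in *Fezf2+ve* library 2. The counts of *Dynlt1a* and *Dynlt1b* were equal in 10 of 10 libraries, and those of *Dynlt1a* and *Dynlt1c* in 9. The 4 values therefore cannot be taken as separate measurements, and reads of the copies may have been counted for each. Elsewhere, *Dynll1* had 11 reads, *Dynll2* 6, *Dynlrb1* 9 and *Dynlt3* 1.

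Dynactin joins dynein to cargo and makes it processive. All 6 *Dctn* genes had reads and 5 were tested, with 48 reads in *Fezf2+ve* and 199 in *Fezf2-ve*. *Dctn6* (ENSMUSG00000031516; chromosome 8, 34090420 to 34108796, minus strand), a subunit of the pointed end, had 1, 1, 0, 0 and 0 reads in *Fezf2+ve* and 169, 0, 2, 0 and 0 in *Fezf2-ve*. *Fezf2-ve* library 1 held 97.7% of the reads, and both types had libraries at 0. Pooled reads over pooled library totals gave a ratio, *Fezf2-ve* over *Fezf2+ve*, of 68.9 with a 95% counting interval of 18.8 to 574. The fitted log2 fold change was -2.98 with a standard error of 2.44, -0.43 without animal 1 and -5.43 without animal 2. *Dctn4* (ENSMUSG00000024603), also of the pointed end, had 18, 1, 2, 0 and 0 reads in *Fezf2+ve* and 3, 1, 0, 0 and 0 in *Fezf2-ve*. *Fezf2+ve* library 1 was high and the rest overlapped, with a log2 fold change of 2.05, a standard error of 1.66, and 1.12 without animal 1. *Dctn1*, the long arm that touches dynein and microtubules, had 11 reads in 8 libraries with at most 3 in any. *Dctn2* had 5, *Dctn5* 13, and *Dctn3*, which overlaps *Il11ra1*, had 20.

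Levels of different genes were compared per kb of gene span (GENCODE vM21), as the median normalized CPM per kb over 10 libraries. The highest were *Dynlt1b* at 2.02, *Dynlt1c* at 1.54, *Dynlt1f* at 1.34, *Dctn3* at 1.30, *Dync1h1* at 1.19, *Dynlt1a* at 1.12 and *Kif3a* at 0.932, followed by *Kif1a* at 0.543, *Kif1b* at 0.496 and *Kif5a* at 0.491. Library ranges per kb of neighbours in this order overlap, with *Dync1h1* from 0.359 to 335, *Kif3a* from 0 to 5.69, *Kif1a* from 0.0642 to 4.78 and *Kif5a* from 0 to 39.95, so the order is not resolved. The study describes its libraries as biased to transcript ends, where reads need not scale with length, and without division by length the order was another. The median normalized CPM was then 78.0 for *Dync1h1*, 65.2 for *Kif1b*, 47.0 for *Kif1a*, 32.2 for *Kif3a*, 29.0 for *Kif5c* and 12.5 for each *Dynlt1* copy. Longer genes had somewhat more reads: Spearman's rho across the 60 members with reads was 0.286 for span and 0.289 for exon length, as a description over genes that share the same libraries and are not independent replicates. Of the 70 members, 19 overlap another counted gene, and reads of such pairs cannot be told apart where strand was not used.

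Other genes of the pathway were read in the same way. Of 30 listed cargo adaptors and motor regulators, 29 were in the table, 26 had reads (*Rhot2*, *Hook1* and *Rilp* had none) and 19 were tested, 8 with positive and 11 with negative fold changes and a median of -0.14. In edgeR with the block, 0 had an FDR of 0.1 or less and 0 an unadjusted p under 0.05, while DESeq2 counted 0 (of 7 with an adjusted p) and 1, and edgeR without the block 0 at that FDR. *Kifap3*, which links kinesin-2 to cargo, had 14, 66, 43, 0 and 5 reads in *Fezf2+ve* and 2, 0, 2, 0 and 117 in *Fezf2-ve*. *Fezf2+ve* was the higher in 3 animals and *Fezf2-ve*, with the fullest library, in animal 5. The log2 fold change was 3.45 with a standard error of 2.07 with the block and 0.38 without it. *Trak1*, an adaptor for mitochondria, had 0, 12, 0, 0 and 1 reads in *Fezf2+ve* and 38, 0, 3, 1 and 50 in *Fezf2-ve*. Its *Fezf2-ve* libraries 1 and 5 were high and the types overlap, with a log2 fold change of -3.61 and a standard error of 2.22. *Fez1*, a kinesin-1 adaptor, had 0, 16, 11, 1 and 1 reads in *Fezf2+ve* and 2, 0, 1, 0 and 1 in *Fezf2-ve*, high in *Fezf2+ve* libraries 2 and 3, with a log2 fold change of 2.23 and a standard error of 1.79.

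The 6 dynactin subunits with other symbols all had reads and 5 were tested, 2 positive and 3 negative, with a median of -0.29. In edgeR with the block, 0 passed at an FDR of 0.1 or at an unadjusted p under 0.05, as did 0 in DESeq2, where 2 had an adjusted p, and 0 at that FDR without the block. *Actr10* had 0, 13, 3, 1 and 1 reads in *Fezf2+ve* and 1, 0, 1, 0 and 1 in *Fezf2-ve*, a ratio of pooled reads over pooled library totals of 7.44 with a 95% counting interval of 2.17 to 39.4. *Fezf2+ve* library 2 was high, with 13 of the 18 reads of its type, and the types overlap. The fit, which takes in the spread between animals, gave a log2 fold change of 1.83 with a standard error of 1.68. *Capzb*, of the actin-capping pair, had 12, 11, 7, 0 and 6 reads in *Fezf2+ve* and 15, 4, 35, 9 and 2 in *Fezf2-ve*, overlapping, with a log2 fold change of -0.36 and a standard error of 1.32. *Actr1b*, of the dynactin filament, had 0, 0, 0, 0 and 3 reads in *Fezf2+ve* and 0, 1, 1, 1 and 0 in *Fezf2-ve*, 3 in each type.

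Tubulins form the track. Of 14 genes, 11 had reads (*Tuba8*, *Tubb6* and *Tubg2* had none) and 9 were tested, 3 positive and 6 negative, with a median of -0.05 and 0 at an FDR of 0.1 or an unadjusted p under 0.05 in edgeR with the block or DESeq2, where 3 had an adjusted p, and 0 at that FDR without the block. *Tuba1a* had the most reads, 520. *Tubb4a* had 0, 0, 0, 1 and 0 reads in *Fezf2+ve* and 3, 2, 2, 2 and 1 in *Fezf2-ve*, the higher type in 5 of 5 animals, with a ratio of pooled reads over pooled library totals, *Fezf2-ve* over *Fezf2+ve*, of 8.06 and a 95% counting interval of 1.15 to 350. The fit gave -2.61 on the log2 scale with a standard error of 1.76. *Tubb2a*, a neuronal beta tubulin, had 4, 4, 7, 3 and 3 reads in *Fezf2+ve* and 4, 3, 4, 9 and 0 in *Fezf2-ve*, evenly spread and overlapping, with a log2 fold change of 0.72 and a standard error of 1.13. *Tuba4a* had 2, 0, 0, 0 and 0 reads in *Fezf2+ve* and 5, 1, 0, 0 and 0 in *Fezf2-ve*, and the same pooled ratio was 2.42 with a 95% counting interval of 0.432 to 24.5.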

How the data were processed

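RNA of sorted cells was amplified by PCR and in vitro transcription and sequenced by the authors, who demultiplexed reads with bcl2fastq 1.8.4 and an inline barcode, trimmed them, mapped them with TopHat2 2.1.1 to mm10, and counted them per RefFlat gene with bedtools 2.26.0. The deposited values are raw read counts per gene, with no normalization. Deposited counts of ERCC spike-in reads were used only to describe depth. The authors' table of their own DESeq2 comparison holds fold changes and p-values and was not used. Whether counting used strand is not given in the sources used here. Gene reads exceed the study's totals of mapped reads in most libraries, so some reads were counted more than once and counting is unlikely to have been limited to exons.

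The 7409 genes that reached 10 CPM in 2 or more libraries were fitted with edgeR 4.0.16 in R 4.3.3: TMM normalization, quasi-likelihood F test, animal as a block, Benjamini-Hochberg adjustment over all tested genes, FDR threshold 0.1. The common biological coefficient of variation was 1.19. The labels give each library a type and a number, and the study states that samples with the same number are a pair. Both libraries of a number were therefore taken as the same animal. Their deviations from the group means correlated at 0.097, -0.00727, 0.0612, 0.0214 and -0.0267 in animals 1 to 5. The configuration of the edgeR fit (library sizes over tested genes, the current in place of the legacy quasi-likelihood method) was set after the first configuration's results on these genes had been seen: that one gave 0 motor genes at an unadjusted p under 0.05, and the one used gave 1. Over 16 configurations with the block, 0 genes passed the FDR, 284 to 312 genes and 0 to 1 motor genes had an unadjusted p under 0.05, and *Kif5a* was under 0.05 in 4. Over 16 without the block, 0 to 646 genes and 0 to 4 motor genes passed the FDR, and 8 motor genes had an unadjusted p under 0.05 in each.

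Levels used a pseudocount of 1 on the CPM scale. Alternatives were no block, DESeq2 1.42.0 with the block, other scalings and filters, each animal left out and, added after the data were seen, the legacy method, the first configuration, limma 3.58.1 and the configurations above. The fits were tested on simulated data with known changes. All 3 tools recovered the changed genes at a low spread. At a spread like that of these libraries, blocked edgeR called none of them at the FDR threshold. DESeq2 called many there, with a larger share of unchanged genes among its calls than the threshold allows. These outcomes hold only for the settings under which those data were made. Whether they carry over to the motor genes, whose median tested member had 18 reads over 10 libraries, was not tested. Some marker genes are not reported here. Members were taken by symbol alone, but the symbol rule and the lists were set with earlier results of these data known. Values are given in every library for the 10 members with the highest mean CPM and the 5 with the smallest p in each direction, for members with the same sign in 5 of 5 animals and at least 3 reads in 5 or more libraries, and for the 3 tested genes with the smallest p of each pathway list. Positions and coding sequence come from GENCODE vM21 and GRCm38. Figures were drawn with matplotlib 3.10.9.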

Additional observations from a re-analysis of the deposited data

Results flagged for a closer look

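In a group of 5 libraries, a highest or lowest value was taken as far from the others when its gap to the nearest exceeded 0.71 of the group's range. In all, 34 groups were examined, and 12 values are given here. The usual chance rate of about 1 such value in 20 groups does not apply to them. Many of the genes were examined for a high mean CPM, which 1 full library can bring about. In the flagged groups of *Kif16b*, *Kif9* and *Kifc5b* the other libraries were all at 0, so a single read would be flagged. The number of values is therefore not read against chance. On the scale log2(CPM + 1), *Dync1h1* reached 14.42 in *Fezf2-ve* library 1 (the others 5.51 to 7.42), and *Kif1b* reached 12.82 in the same library (5.31 to 6.49). *Kif13b* reached 15.29 in *Fezf2+ve* library 4 (3.89 to 6.37) and *Kif5c* 10.26 in *Fezf2+ve* library 1 (4.67 to 5.41). *Kif16b* was at 7.29 in *Fezf2-ve* library 5, from 28 reads, where the other *Fezf2-ve* libraries had none. *Kif9* in *Fezf2+ve* library 2 (2.91) and *Kifc5b* in *Fezf2-ve* library 1 (3.48) stood apart from libraries at 0 by 1 and 2 reads. Low values were *Dync2h1* in *Fezf2+ve* library 1, at 0 (2.83 to 3.89 in the others), and *Kif5a* in *Fezf2-ve* library 4, at 0 (3.27 to 4.41), each without a read. The percent of gene reads on motor genes was 2.27 in *Fezf2+ve* library 4 (0.0639 to 0.412 in the others) and 3.60 in *Fezf2-ve* library 1 (0.0341 to 0.187). The number of motor genes with reads was 41 in *Fezf2-ve* library 3 (28 to 30 in the others); that library also had reads on 32.4% of all genes (22.1% to 30.0% in the others). The source of these values was not tested.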

How the results depend on the processing

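Without the replicate block, 3 motor genes had an FDR of 0.1 or less (*Dync1h1* at -6.08, *Kif13b* at 7.61 and *Kif5a* at 4.71 on the log2 scale) and 4 in each direction had an unadjusted edgeR p under 0.05; the cause was not tested. Leaving out the block changed no other FDR call of a motor gene, and 11 microglial genes also passed without it. With the robust option and the current method, no gene of the table passed without the block. Among 16 configurations without it, 0 to 4 motor genes passed. The FDR count of motor genes was 0 under the other settings, but in each blocked edgeR setting 0 genes of the whole table passed, so this says nothing about stability. The count higher in *Fezf2+ve* at an unadjusted p under 0.05, 1 as reported, was 2 with DESeq2, 0 with library size only, 0 with no filter (60 members tested), 2 with 10 CPM in at least 5 libraries (16 members tested), 0 with the legacy method, 0 with the first configuration and 2 with limma on log2(CPM + 1). With each animal left out it was 0 to 1: 0 without replicate 3 or 4, and otherwise *Kifc5b* (without 1), *Kif5c* (without 2) or *Kif16b* (without 5). The count higher in *Fezf2-ve* was 0 to 1, with *Kif9* counted without replicate 2.

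The median log2 fold change of tested members, 0.26 as reported, was 0.15 with DESeq2, -0.048 with no filter, -0.0035 with the stricter filter, -0.019 with limma, and -0.13 to 0.29 with each animal left out (-0.13 without replicate 3, 0.03 without replicate 2), so its sign is not settled. Of 204 values of the 15 named genes, 198 kept their direction without passing the threshold, though 7 of the 204, all from DESeq2, have no adjusted p, 3 passed it (the genes above) and 3 reversed: *Kif1a* without the replicate block (-0.30), *Kif1b* without replicate 1 (0.18, range with each animal left out -1.10 to 0.18) and *Kif5b* without replicate 2 (-0.76, range -0.76 to 1.00). The cause was not tested.

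Depth limits every value: the median tested member had 18 reads over 10 libraries, and 29 of 70 members were not tested. Scaling moved the median of all genes from -0.16 to -0.21 (DESeq2 size factors) and -0.19 (library size only).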

Other observations

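Markers of other cell types were summed per library. The 7 astrocyte genes, 6 with reads (*Gfap* at 0), held 88, 819, 76, 255 and 94 reads in *Fezf2+ve* libraries 1 to 5 and 120, 21, 15, 803 and 9 in *Fezf2-ve* libraries, with *Slc1a2* the most abundant at 1817 reads. Libraries *Fezf2+ve* 2 and 4 and *Fezf2-ve* 4 were the high ones, at 5356, 3001 and 6215 CPM. *Fezf2+ve* library 4, which holds 3406 of the *Kif13b* reads, had 238 of the 271 *Slc1a3* reads, and the part of this in the *Kif13b* value was not tested. Of oligodendrocyte genes, *Mbp* had 61, 289, 33, 8 and 53 reads in *Fezf2+ve* and 72, 14, 17, 7 and 3 in *Fezf2-ve*, and *Cnp* had 15, 44, 4, 0 and 1 in *Fezf2+ve* and 60, 10, 4, 0 and 4 in *Fezf2-ve*. Over the 10 libraries *Mog* had 80 reads, *Mobp* 38 and *Mag* 9. *Fezf2+ve* library 2, high for the astrocyte sum and for *Mbp*, was also the fullest for *Kif5a*, *Kif5b* and *Kifc5b*, and the part of these cells in those values was not tested. The 5 endothelial genes held 1, 7, 7, 0 and 9 reads in *Fezf2+ve* and 2, 2, 1, 7 and 9 in *Fezf2-ve*, led by *Flt1* at 26. The 6 inhibitory neuron genes held 0, 0, 0, 0 and 1 reads and 0, 4, 2, 1 and 3, led by *Gad2* at 6, with *Slc32a1*, *Pvalb* and *Vip* at 0. Tested were 5 astrocyte, 3 endothelial and 0 inhibitory neuron genes, and the 5 oligodendrocyte genes named. In edgeR with the block, 0 of them had an FDR of 0.1 or less and 0 an unadjusted p under 0.05. DESeq2, which gave an adjusted p to 3 of the astrocyte genes and 0 of the endothelial genes, counted 0 at that FDR and 1 astrocyte gene and *Mbp* at that p, and edgeR without the block 0 at that FDR.

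Spike-in reads took 46.7%, 9.04%, 6.44%, 12.6% and 8.51% of the counted reads of *Fezf2+ve* libraries 1 to 5 and 24.8%, 27.1%, 6.52%, 9.81% and 2.79% of *Fezf2-ve* libraries 1 to 5. *Fezf2+ve* library 1, the fullest for *Kif5c*, *Kif3a* and *Dctn4*, had the highest share.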
